A study of Homo sapiens with 2 samples.

Results

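The genes that carry a cell from G1 into S phase were examined in ATAC-seq lists of CAL27, an established line of human oral squamous cell carcinoma. They are 10 of the 19974 protein-coding genes of the RefSeq table on chromosomes 1 to 22 and X: the D-type cyclins CCND1, CCND2 and CCND3, the E-type cyclins CCNE1 and CCNE2, the cyclin-dependent kinases CDK2, CDK4 and CDK6, the transcription factor gene E2F1 and the retinoblastoma gene RB1. ATAC-seq lets the Tn5 transposase cut open chromatin, so that a region with many cuts is an accessible one. The series holds 1 library of CAL27 cells given 10 mM lactate for 24 h, with 15401276 tags, and 1 of untreated CAL27 cells, with 18248413 tags. No genetic change or other agent is named for either culture. All accessible regions that the authors listed within a gene or within 50 kb of either end (hg38) were taken, 121 of 122399 regions of the lactate list and 98 of 98152 of the untreated list. With 1 library per group there is no test between conditions, every value compares these libraries, and the intervals given are 95% intervals for counting error alone. In a bulk library, more cells with an open site and more frequent opening per cell cannot be told apart.

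In G1, mitogens raise the D-type cyclins, which bind CDK4 and CDK6. These kinases phosphorylate the RB1 product, which then lets go of E2F1 and its relatives. E2F factors switch on genes for DNA replication, the E-type cyclins and E2F1 itself, and cyclin E with CDK2 phosphorylates RB1 further. In squamous carcinoma of the mouth the chromosome segment with CCND1 is often amplified. Copy number in these cultures was not analysed here.

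The 250 bases before the start sites that the results turn on are shown 5′ to 3′ on the strand of the gene, from the RefSeq promoter table (GRCh38.p14). The table has entries for 6 of the 10 genes: CCND3, CCNE1, CDK4, CDK6, E2F1 and RB1. The RB1 entry is an inner start at 48476450, where neither list has a region, and not the outer start described below. E2F1 is shown for the highest start ratio of the 10 genes, CCNE1 for a start region listed in the lactate library alone, CCND3 for its inner start, the tallest of that gene, and CDK4 and CDK6 because theirs stood close together. Capitals mark E2F boxes, CCAAT boxes and E-boxes on either strand, and, where a sequence has none of these, SP1 boxes.
E2F1, chr20:33686386-33686635, minus strand: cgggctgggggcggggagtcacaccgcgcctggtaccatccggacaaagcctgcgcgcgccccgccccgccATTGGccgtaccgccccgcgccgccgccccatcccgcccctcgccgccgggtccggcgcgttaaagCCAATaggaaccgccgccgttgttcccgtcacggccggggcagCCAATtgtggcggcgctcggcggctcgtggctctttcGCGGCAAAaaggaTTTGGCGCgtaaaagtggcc
CCNE1, chr19:29811741-29811990, plus strand: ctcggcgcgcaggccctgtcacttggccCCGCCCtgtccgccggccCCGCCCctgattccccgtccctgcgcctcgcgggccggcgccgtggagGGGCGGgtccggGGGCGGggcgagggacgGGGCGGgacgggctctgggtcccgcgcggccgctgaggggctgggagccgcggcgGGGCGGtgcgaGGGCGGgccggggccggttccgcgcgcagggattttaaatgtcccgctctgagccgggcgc
CCND3 inner start, chr6:41941809-41942058, minus strand: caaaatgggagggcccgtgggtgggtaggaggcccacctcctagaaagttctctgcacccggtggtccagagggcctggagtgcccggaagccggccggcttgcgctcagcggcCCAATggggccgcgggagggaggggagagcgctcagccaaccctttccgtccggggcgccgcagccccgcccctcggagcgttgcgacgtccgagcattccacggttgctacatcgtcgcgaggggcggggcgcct
CDK4, chr12:57752311-57752560, minus strand: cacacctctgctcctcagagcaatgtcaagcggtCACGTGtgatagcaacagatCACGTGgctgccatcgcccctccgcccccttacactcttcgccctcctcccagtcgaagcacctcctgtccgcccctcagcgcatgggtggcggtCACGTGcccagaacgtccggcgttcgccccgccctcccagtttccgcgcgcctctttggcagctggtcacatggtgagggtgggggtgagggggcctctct
CDK6 inner start, chr7:92833960-92834209, minus strand: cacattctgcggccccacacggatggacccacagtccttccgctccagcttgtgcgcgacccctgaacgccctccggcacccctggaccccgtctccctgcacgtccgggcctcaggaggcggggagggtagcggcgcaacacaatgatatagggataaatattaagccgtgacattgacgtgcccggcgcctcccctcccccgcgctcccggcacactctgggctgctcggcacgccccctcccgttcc

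Motifs were searched on both strands as exact letters, and a match is a description of the sequence, not evidence of binding. The E2F box was taken as TTTCCCGC, TTTGGCGC, TTTGCCGC or TTTCGCGC. E2F1 holds 2 of them, GCGGCAAA from base -33 to -26 before its start (TTTGCCGC on the other strand) and TTTGGCGC from -20 to -13, and 0.172% of 22132 promoters of protein-coding genes hold at least 2 in the same length. It also holds 3 CCAAT boxes (letters CCAAT), which 3.34% of promoters reach. CDK4 holds 3 E-boxes (CACGTG, the letters that MYC and its relatives bind), a number found in 0.113% of promoters, while 7.37% have at least 1. CCNE1 holds 7 SP1 boxes (GGGCGG), a number that 1.49% of promoters reach, and no E2F box, CCAAT box or E-box in this window. The CCND3 sequence holds 1 CCAAT box and 2 SP1 boxes. SP1 boxes, left in small letters there, also stand in the E2F1 (5) and CDK4 (3) sequences, and 18.4% of promoters hold at least 3. The CDK6 sequence holds none of these letters. AP-1 boxes (TGANTCA), CRE (TGACGTCA) and TATA boxes (TATAAA) were in none of the 5 sequences, against 5.35%, 2.02% and 9.0% of all promoters. The 5 sequences had a GC content of 65.6% to 81.2%, the highest at CCNE1, against a median of 62% over all promoters.

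At the main start regions, the cyclin genes, E2F1 and RB1 were higher in the lactate library by a factor of more than 2 or listed there alone, and the 3 kinase genes had ratios of 1.32 to 1.44 with intervals that include 1. At the summits nearest to the start the CDK6 ratio was 1.80, from 44 lactate and 29 untreated tags. The outermost CCND3 start, not its main one, had a ratio of 1.21. Over the start regions of all protein-coding genes the median was 1.84 and 39.4% reached 2. Of all these genes, 5.38% had a start region in the lactate list alone. Height is the summit pileup, the number of 200 bp tags over the highest point of a region, per 1000000 total tags of its library, called scaled tags from here on. All shared regions of the 2 lists had a median ratio of lactate to untreated height of 1.65, a general shift of 0.72 on the log2 scale. A relative ratio therefore also sets each region against the median of shared regions with a like number of summit tags. A start region here overlaps the 1 kb on either side of an annotated start. CCND1, CCND2, CDK2 and CCNE2 have no entry in the table that gives strand, so both of their ends were looked at. The same was done for every other protein-coding gene without an entry. Shares over all start regions, and lists of other genes, can therefore include regions at far gene ends. By textbook orientation CCND1, CCND2 and CDK2 start at the lower-coordinate end and CCNE2 at the upper one.

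E2F1, the factor that RB1 holds back, had the tallest start region of the 10 genes in the lactate library, leaving aside the far end of CDK2 where RAB5B starts. The region (chromosome 20, 33686138 to 33686894, hg38) covers the start site at 33686385 and all 250 bases printed above in both libraries. Its summit held 117 tags in the lactate library and 40 in the untreated library, or 7.60 lactate and 2.19 untreated scaled tags. The ratio was 3.47 (conditional Poisson interval 2.40 to 5.10) and the relative ratio 1.83 (1.27 to 2.69), the one start region of the 10 genes whose relative interval lies above 1, as do 7.93% of the start regions of all protein-coding genes. The highest points lay at -149 bp from the start in the lactate library and at -144 bp in the untreated library, upstream of the E2F boxes. A smaller region 562 bp inside the gene (33685659 to 33685968) had 38 tags in the lactate list and was not in the untreated list.

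CCNE1, whose product cyclin E1 partners CDK2, had a start region in the lactate list alone. The region (chromosome 19, 29811363 to 29812128) covers all of the printed 250 bases and had a pileup of 44 tags, 2.86 scaled tags, with its summit 59 bp before the start. A region that is not listed has no value in the untreated file. The untreated regions listed in the CCNE1 window had highest summits of 13 tags or more. This sets no upper limit on the untreated tags at the start. CCND2, a D-type cyclin, also had its lower-end region in the lactate list alone (chromosome 12, 4273641 to 4273850, 15 tags, 0.974 scaled tags), with its summit 16 bp before the annotated end. Both are among the 5.38% of protein-coding genes with a start region in the lactate list alone, and 0.601% had one in the untreated list alone.

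CCND1, the D-type cyclin most often raised in carcinomas, had 64 tags in the lactate and 27 in the untreated library at its lower end (chromosome 11, 69641028 to 69641467). These are 4.16 lactate and 1.48 untreated scaled tags, a ratio of 2.81 (1.77 to 4.58) and a relative ratio of 1.58 (0.993 to 2.58). The main height at CCND3 was at an inner start (chromosome 6, 41940849 to 41942326), with 77 lactate and 45 untreated tags and a ratio of 2.03 (1.39 to 3.0). That region covers the printed sequence in both libraries, and its relative ratio was 1.09 (0.745 to 1.61). At the next annotated CCND3 start, which lies further upstream, a region of 25 tags (42048887 to 42049086) was in the lactate list alone. At the outermost start the region (42050244 to 42050929) lies where TAF8 also begins and had 41 lactate and 40 untreated tags, a ratio of 1.21 (0.766 to 1.93). CCNE2, the second E-type cyclin, had 86 lactate and 48 untreated tags at its upper end (chromosome 8, 94895058 to 94896115), in a region that the start of NDUFAF6 shares, with its lactate summit 943 bp inside CCNE2. Its ratio was 2.12 (1.47 to 3.09) and its relative ratio 1.12 (0.778 to 1.63). With the summits nearest to that end it was 5.09, from 86 lactate and 20 untreated tags, but these lie at different positions: the untreated summit of 48 tags is the one 11 bp from the lactate summit. RB1, the brake of the pathway, had 48 lactate and 25 untreated tags at its outer start (chromosome 13, 48303264 to 48304275), a ratio of 2.27 (1.38 to 3.85) and a relative ratio of 1.30 (0.783 to 2.19).

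The kinase genes had the lower ratios at their tallest start summits. CDK4, a partner of the D-type cyclins, had 50 lactate and 45 untreated tags in a region that covers its start and its 3 E-boxes (chromosome 12, 57751589 to 57752804). The ratio was 1.32 (0.862 to 2.02) and the relative ratio 0.723 (0.474 to 1.11). CDK6, the other such partner, had no listed region at its outer start in either library. At its inner start (chromosome 7, 92832920 to 92834184) it had 48 lactate and 41 untreated tags, a ratio of 1.39 (0.895 to 2.16) and a relative ratio of 0.780 (0.504 to 1.21). The highest points lay 844 bp past that start in the lactate and 847 bp in the untreated library, and the region covers 225 of the 250 printed bases in the lactate list and 134 in the untreated list. CDK2 had 39 lactate and 32 untreated tags at its lower end (chromosome 12, 55966007 to 55967159), which it shares with an end of PMEL, and the ratio was 1.44 (0.882 to 2.38) and the relative ratio 0.823 (0.502 to 1.36).

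Each kinase interval overlaps those of the cyclin genes in part, while that of E2F1 begins at 2.40, above the kinase intervals, and the difference between the gene groups was not tested. Counting 1 shared region a gene, the one with the most tags at any start or unoriented end (for CDK2 the one at RAB5B), 5 of the 8 genes with a ratio reached 2 (CCND1, CCND3, CCNE2, E2F1 and RB1). Over the start regions of all protein-coding genes, 39.4% reached 2 and the median ratio was 1.84. No start region of the 10 genes had a ratio of 0.5 or less, and 0.0241% of all start regions did.

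**Figure D1:**
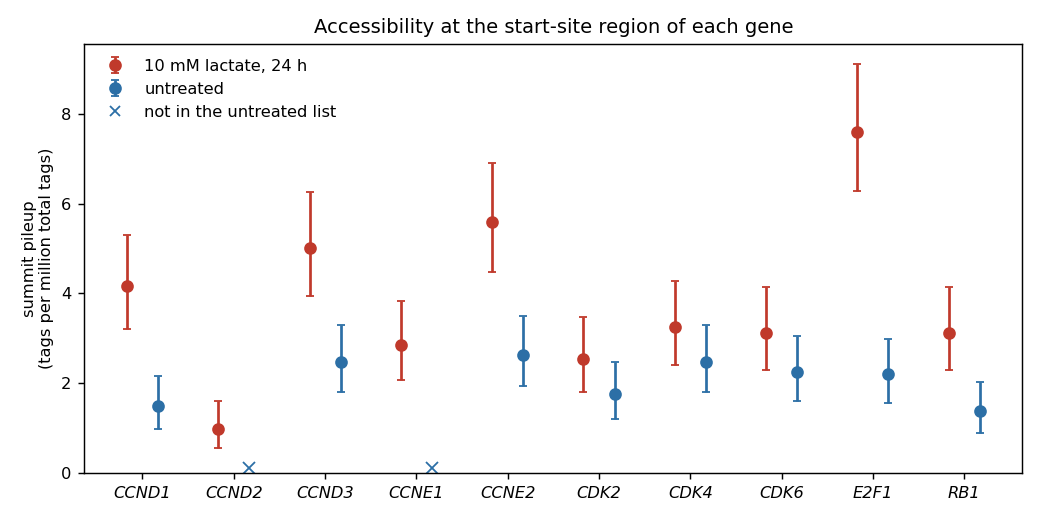
Summit pileup in scaled tags (per 1000000 total tags) at 1 start-site region of each gene, lactate (red) left of untreated (blue), with exact 95% Poisson intervals for counting error; a cross marks a region not in the untreated list. E2F1 stands at 7.60 in the lactate library against 2.19 in the untreated library, while CDK4 stands at 3.25 in lactate against 2.47 in untreated.

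Over the whole windows, the balance of listed regions near these genes was close to that of the genome. Of the 121 lactate-list regions, 34 (28.1%, exact binomial interval 20.3 to 37.0) overlapped no untreated region, against 27.7% over all chromosomes used. Of the 98 untreated-list regions, 10 (10.2%, 5.0 to 18.0) overlapped no lactate region, against 9.95%. With regions of a fold enrichment of at least 4 alone, 39 of 102 lactate and 5 of 69 untreated regions were in 1 list only. The shares over all regions at that cut are not given here, so these counts cannot be set against the genome. The lists covered 60.3 kb in lactate and 52.2 kb in untreated cells. Merging the overlapping regions of both lists gave 129, of which 85 were shared.

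The single genes spread widely around these shares, each from few regions. In the lactate list, 8 of 14 regions near CCND1 were not in the untreated list (57.1%, 28.9 to 82.3), as were 7 of 16 near CDK4 (43.8%, 19.8 to 70.1) and 5 of 11 near CCNE1 (45.5%, 16.7 to 76.6). Near E2F1 it was 2 of 12, near CDK2 2 of 15, near CDK6 4 of 23, near CCND3 4 of 18, near CCND2 1 of 5, near RB1 1 of 4 and near CCNE2 0 of 3. The interval for CCND1 begins just above the share over all regions. The background around each peak, worked out from its pileup and fold enrichment, was high near CCND1, with a median of 0.540 scaled tags in lactate and 0.413 in untreated cells at shared regions. Over all shared regions these medians were 0.138 in lactate and 0.125 in untreated cells, and the part of this background in the CCND1 share was not tested. Near CDK2 the background was 0.428 in lactate and 0.341 in untreated cells, and near E2F1 0.399 in lactate and 0.361 in untreated cells. It was 0.371 in lactate and 0.301 in untreated cells near CDK4. Near CCNE1 it was 0.298 in lactate and 0.194 in untreated cells. These medians are from shared regions and do not cover regions of 1 list alone. Any link between background and the shares was not tested. In the untreated list, regions missing from the lactate list numbered 2 each near CCND2, CCND3, CCNE1 and RB1, 1 each near CCND1 and CDK6, and 0 near CCNE2, CDK2, CDK4 and E2F1.

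**Figure D2:**
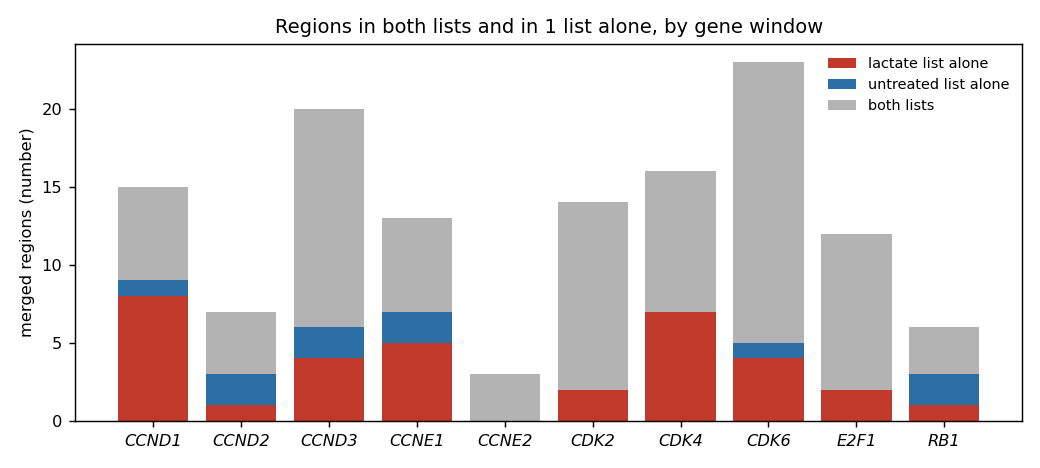
Number of merged regions per gene window, split into those in the lactate list alone (red), in the untreated list alone (blue) and in both lists (grey). CCND1 is the window where regions of the lactate list alone, 8, outnumber shared ones, 6.

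Regions of 1 list alone with a fold enrichment of at least 5, a peak's own value over its local background, numbered 16 of 34 in the lactate list and 1 of 10 in the untreated list. Over all regions of 1 list alone, 52.1% of the lactate and 28.7% of the untreated ones reached that fold. CCNE1 had 4 of the 16. Besides the start region with its fold of 11.7, they lay 1.40 kb before the start (fold 5.56, 21 tags), 8.17 kb inside the gene (fold 8.53, 16 tags) and 46.2 kb past the start, beyond the gene (chromosome 19, 29858052 to 29858386, fold 10.4, 28 tags). CCND1 had 5, all between genes, at folds of 5 to 7.76 and pileups of 9 to 29. Of these, 3 lay 42.9 to 48.3 kb past its lower end, on the side of FGF19, and the one at 48.3 kb is narrow. CDK6 had 3 inside its gene, at 105, 145 and 191 kb from its outer start, with folds of 8.65, 7.52 and 5.77. CDK4 had 2, at folds of 5.94 and 5.20, of which the stronger is a narrow single-summit region. CDK2 had 1, inside PYM1 (fold 9.35), and CCND3 had 1 inside the gene (fold 5.52). The untreated region lay inside RB1, 159 kb from its start (chromosome 13, 48462953 to 48463171, fold 9.19, 19 tags), and is also narrow. Narrow regions, hardly wider than an extended tag and with 1 summit, made up 8.26% of the lactate and 8.16% of the untreated regions near these genes, against 16.1% of all lactate and 17.3% of all untreated regions.

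At the 85 shared regions the median ratio was 1.66, close to the 1.65 of all 86803 shared regions. Of the 85, 24 (28.2%) had a ratio of at least 2, against 29.3% of all shared regions, and none had 0.5 or less, against 0.297%. The ratio exceeded 1 in 74 of the 85 regions, and 88.7% of all shared regions did so. The relative ratio exceeded 1 in 35 of the 85 (41.2%), against 48.9%. Summits of both libraries lay within 100 bp of each other in 75 of the 85 regions, with a median gap of 18 bp. By place, the median ratio was 1.95 at the 10 shared regions at a start or unoriented end of these genes, 1.70 at 20 regions at a start or end of a neighbouring gene, 1.94 at 15 regions inside neighbouring genes, 1.46 at 15 regions between genes and 1.27 at 25 regions inside the genes themselves.

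CDK6 had the lowest median of the 10 genes, 1.33 over 18 shared regions, and the median relative ratio was 0.840. The ratio was below 1 in 6 of them (33.3%), all inside the gene, against 11.3% of all shared regions. The lowest lay 173 kb from the outer start (chromosome 7, 92663004 to 92663222), with 25 lactate and 57 untreated tags and a ratio of 0.520 (0.311 to 0.845). It was the tallest region of the CDK6 window in the untreated library and is a narrow one. Another, 88.9 kb from the outer start (92747120 to 92747814), had 11 lactate and 25 untreated tags and a ratio of 0.521 (0.232 to 1.10). The remaining 4 had ratios of 0.798 to 0.922 with intervals that include 1. The gene also holds the tallest lactate region of its window, 72.8 kb from the outer start (92763586 to 92764357), with 87 lactate and 52 untreated tags and a ratio of 1.98 (1.39 to 2.85). The highest CDK6 ratio was 2.89 (1.58 to 5.54), at a region 8.48 kb from the outer start with 39 lactate and 16 untreated tags. That region is narrow in the lactate list. Without narrow regions, 4 of 15 CDK6 regions had a ratio below 1 and the median was 1.39. Over all shared regions with narrow ones left out the median was 1.68, and their share below 1 is not given here. The other 9 genes together had a median ratio of 1.70 over 67 shared regions, with 5 below 1. Inside CDK6 the shared regions other than the start region had a median of 1.18 (14 regions), and inside the other genes 1.49 (11 regions).

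**Figure D3:**
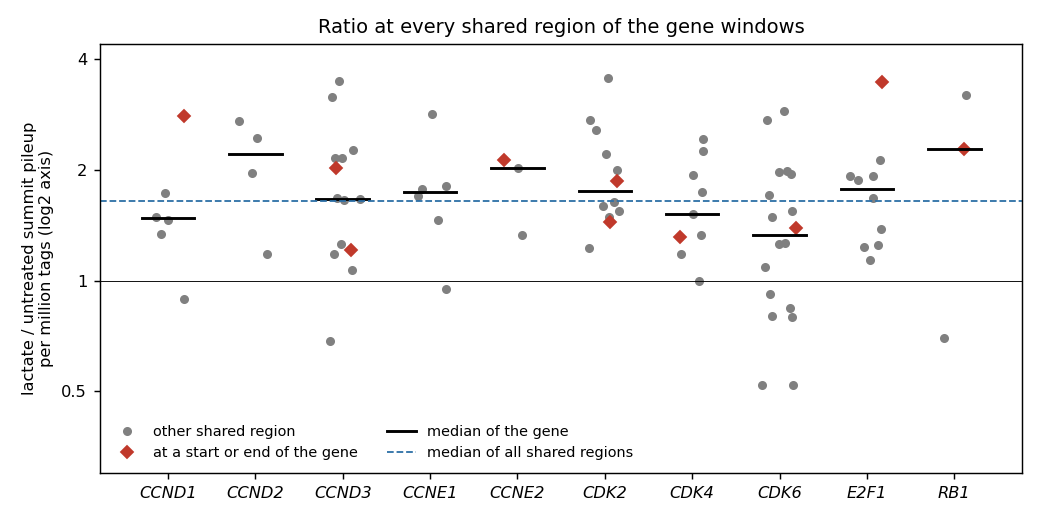
Ratio of lactate to untreated summit height (log2 axis) at each of the 85 shared regions, by gene; red diamonds are regions at a start or unoriented end of the gene, black bars gene medians, and the dashed line the median of all shared regions, 1.65. CDK6 spreads from 0.520 to 2.89 around a median of 1.33, and the E2F1 start region stands at 3.47.

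In the CCND3 window the ratios spread between 0.686 and 3.48, and both ends of that range lay inside the gene. The highest lay 21.3 kb from the outer start (chromosome 6, 42028330 to 42028899), with 50 lactate and 17 untreated tags and a ratio of 3.48 (1.98 to 6.45). The next lay 5.65 kb from that start (42044010 to 42044530), with 40 lactate and 15 untreated tags and a ratio of 3.16 (1.71 to 6.16). A narrow region 71.2 kb from the start had 11 lactate and 19 untreated tags and the lowest ratio, 0.686 (0.295 to 1.52). In RB1, whose gene is long, the 3 shared regions were the start, one 30.4 kb inside with 10 lactate and 17 untreated tags (ratio 0.697, 0.285 to 1.61), and one 97.3 kb inside, where LPAR6 lies within RB1, with 27 lactate and 10 untreated tags (ratio 3.20, 1.5 to 7.41).

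Around CCND2 the strongest heights lay away from its start. A narrow region 12.4 kb inside the gene had 106 lactate and 64 untreated tags (ratio 1.96, 1.43 to 2.72). At 2477 bp past the upper end of the gene (chromosome 12, 4307830 to 4308728) there were 93 lactate and 45 untreated tags, a ratio of 2.45 (1.70 to 3.58). At TIGAR, the next gene, there were 85 lactate and 37 untreated tags and a ratio of 2.72 (1.83 to 4.12). Near CCND1 the tallest region lay 2.02 kb before the lower end (chromosome 11, 69638984 to 69639520), with 68 lactate and 55 untreated tags and a ratio of 1.46 (1.01 to 2.13). The single CCND1 ratio below 1 was 0.889 (0.480 to 1.62), at 2178 bp past the upper end, from 21 lactate and 28 untreated tags. LTO1, the neighbour of CCND1, had 63 lactate and 43 untreated tags at its start or end (ratio 1.74, 1.16 to 2.62).

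Near CCNE1 the tallest lactate region lay beyond the gene (chromosome 19, 29834977 to 29835322), with 55 lactate and 23 untreated tags and a ratio of 2.83 (1.71 to 4.83). A cluster of 3 shared regions 32.4 to 33.8 kb past the start had ratios of 1.70 to 1.81. CCNE2 had 3 shared regions in all, and its other ratios were 2.02 at a narrow region (29 lactate and 17 untreated tags) and 1.33 (9 lactate and 8 untreated tags).

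The windows of CDK2, CDK4 and E2F1 are crowded with other genes. Near CDK2 the tallest region of all 10 windows lay at the start of RAB5B (chromosome 12, 55973368 to 55974549), with 192 lactate and 122 untreated tags, or 12.5 lactate and 6.69 untreated scaled tags, and a ratio of 1.86 (1.48 to 2.36). The highest ratio of all 85, 3.55 (1.54 to 9.15), lay inside RAB5B and rests on 24 lactate and 8 untreated tags. The start of SUOX had 104 lactate and 48 untreated tags and a ratio of 2.57 (1.81 to 3.69). Near CDK4 the region at TSPAN31, a tetraspanin gene, had 82 lactate and 73 untreated tags (ratio 1.33, 0.959 to 1.85), close to the ratio at the CDK4 start. Near E2F1 the tallest region lay at ACTL10 inside NECAB3 (chromosome 20, 33666350 to 33668249), with 148 lactate and 91 untreated tags and a ratio of 1.93 (1.47 to 2.53). The E2F1 start had the highest ratio of its window, where the other 9 shared regions ranged from 1.14 to 2.13.

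**Figure D4:**
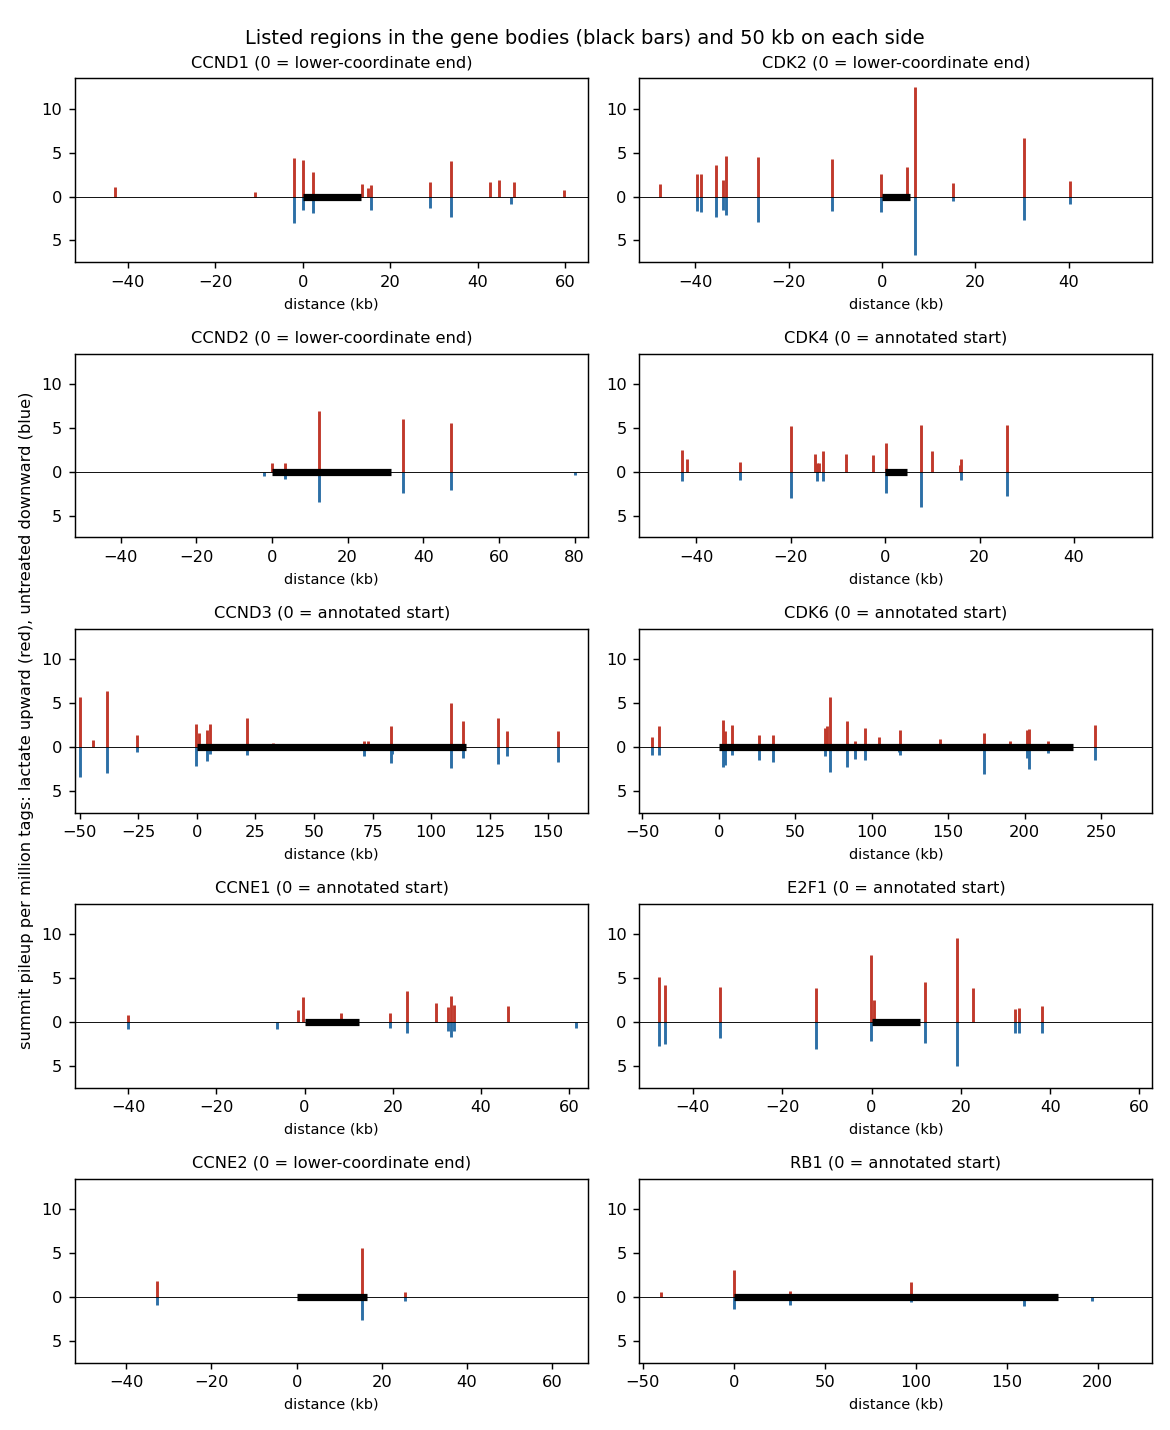
Summit pileup in scaled tags of every listed region by distance in kb, lactate upward (red) and untreated downward (blue); black bars are the genes, and 0 is the annotated outer start, or the lower-coordinate end where no strand was at hand. The CCNE1 start has a lactate value with no untreated one, and the tallest pair, 12.5 lactate and 6.69 untreated, lies beside CDK2 at RAB5B.

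The windows end at a set distance. The shared region closest inside 50 kb lay 49292 bp from CCND3 (87 lactate and 62 untreated tags, ratio 1.66), and the shared region closest outside lay 50336 bp from RB1 (82 lactate and 45 untreated tags, ratio 2.16).

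The other genes of the pathway had a listed region at a start, or at an unoriented end, in both libraries in 54 of 54 cases. Of all protein-coding genes 62.6% did so. The list was made with earlier results of these data known. At 53 of them a shared region gave a ratio, with a median of 1.83, against 1.84 over all genes. The ratio reached 2 in 16 (30.2%), against 39.4%. It was above 1 in 50 of the 53, against 12040 of 12431 over all genes with a ratio. In none was it 0.5 or less, against 3 of those 12431. CDKN1C, an inhibitor of the Cip/Kip family, had a region in each list but none that overlapped.

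Among 7 inhibitors of the kinases, CDKN2D, an INK4 protein, had the highest ratio at 3.10 (2.21 to 4.39), from 128 lactate and 49 untreated tags. CDKN2A, a gene that is often lost in oral carcinoma, had the lowest at 1.03 (0.633 to 1.68), from 34 lactate and 39 untreated tags. Its relative ratio was 0.587. The region (chromosome 9, 21993940 to 21995923) is the shared one with the most tags over all starts of the gene. Whether it serves the INK4 product was not examined. Among 11 pocket proteins, E2F and DP factors, TFDP1, the partner with which E2F1 binds DNA, stood highest at 3.13 (1.65 to 6.27), with 37 lactate and 14 untreated tags. E2F6, a repressor, stood lowest at 1.18 (0.715 to 1.96), with 34 tags in each library. Of 5 genes of CDK activation, CCNH, a subunit of the CDK-activating kinase, had 2.21 (1.52 to 3.25) and MNAT1, another subunit, 1.18 (0.506 to 2.77).

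Of 8 genes of cyclin degradation, SKP2, the F-box protein that removes the inhibitor p27, had 3.16 (2.2 to 4.62), from 112 lactate and 42 untreated tags. FBXO4, an F-box protein for cyclin D1, had 0.963 (0.614 to 1.5), from 39 lactate and 48 untreated tags. The median of this list, 1.51, was the lowest of the lists. Of 20 S-phase genes that E2F factors switch on, the median was 1.86 and 6 reached 2. CDC6, a loader of the replicative helicase, was highest with 125 lactate and 56 untreated tags and a ratio of 2.64 (1.92 to 3.69). CDT1, its partner in helicase loading, was lowest at 0.808 (0.390 to 1.63), from 15 lactate and 22 untreated tags. Among 3 later cyclins, CCNB1 had 2.29 (1.59 to 3.35) and CCNB2 1.45 (0.995 to 2.13).

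**Figure D5:**
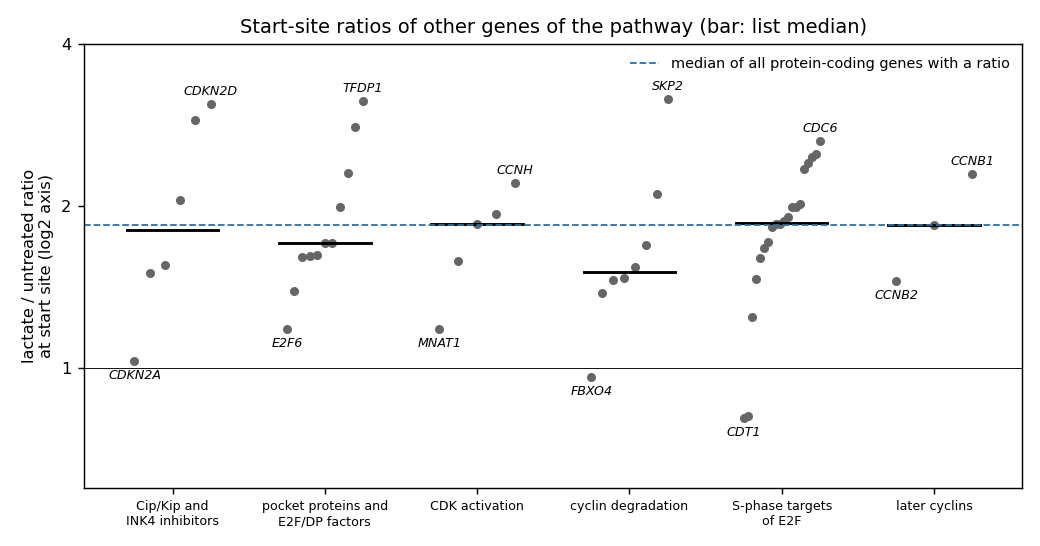
Ratio of lactate to untreated summit height (log2 axis) at the start-site region of each of 53 other pathway genes, by list, with the highest and lowest gene of each list named; bars are list medians and the dashed line is the median of all protein-coding genes, 1.84. The list medians lie between 1.51 and 1.86.

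As a check of the cell type, 9 of 10 squamous epithelial markers had a start region in both libraries. TP63 had none at the starts used. Of markers of other cells, 0 of 4 endothelial, 3 of 5 leukocyte and 3 of 6 fibroblast genes had one in both libraries, against 62.6% of all protein-coding genes, and PDGFRB had one in the lactate list alone. The leukocyte genes with one were CD3E, LYZ and SPI1, while PTPRC had none. The strongest was LYZ (chromosome 12, 69353862 to 69354080) with 78 lactate and 39 untreated tags. Start regions here include either end of genes without a promoter entry. Whether the CD3E, LYZ and SPI1 regions lie at a start or at a far end was not worked out. The part of such marker regions in the results above was not tested.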

How the data were processed

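Per the labels' protocols, nuclei of CAL27 cells were incubated with Tn5, and groups follow the treatment labels. BWA 0.7.12, fastp 0.20.0, the build hg38 and MACS2 2.1.0 are listed in no stated order, per the submitters' processing notes; the file headers give MACS 2.2.7.1. Per the file headers, the authors called regions in each library separately, with no control, at a q-value threshold of 0.05, with tags shifted by 100 bp, extended to 200 bp and all remaining duplicates kept. The deposited pileup is a signal, the number of extended tags over a summit, unscaled. The deposited fold enrichment is a ratio to local background with 1 added to each, and served only within a list. Positions, widths and summits are deposited in bp.

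Regions on chromosomes 1 to 22 and X were counted with their highest summit, shared at 1 bp of overlap, and merged across lists. Pileups were divided by the total tags of the file headers. Relative ratios used 20 bins of summed tags. A ratio of at least 2, or at most 0.5, counted as a call. Python 3.11.15, pandas 2.3.3 and SciPy 1.17.1 were used, and the code was tested on simulated lists. Depth was 15401276 tags for lactate and 18248413 for untreated, so that 1 pileup tag is 0.0649 lactate and 0.0548 untreated scaled tags. Tags from PCR are not independent, and intervals cover counting error only. Gene ends and starts came from RefSeq tables of GRCh38.p14, the build of hg38. Starts are those of the promoter table, which holds 15812 of the 19974 protein-coding genes, plus the outer gene end on that strand. For genes without an entry, both gene ends counted as starts.

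The members and lists were chosen with earlier results of these data known. Named were all 10 genes, their start regions, their tallest regions, their regions of 1 list alone at a fold of at least 5, and in each pathway list the genes with the highest and lowest ratio. Other regions of the windows were named after their values were seen. Alternatives changed the window, overlap, region strength, narrow regions, scaling and choice of summit.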

Additional observations from a re-analysis of the deposited data

How the results depend on the processing

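No paired analysis was possible because only 1 lactate and 1 untreated library exist in these files. The median ratio at shared regions stayed between 1.49 and 1.71 under the alternatives of window, overlap, region strength, narrow regions and summit choice, and scaling by regions of like summit tags brought it to 0.944, with 2 regions of at least 2. Within gene bodies alone there were 46 lactate and 38 untreated regions, 12 lactate-only, 4 untreated-only and 10 of at least 2. Within 100 kb there were 189 lactate and 154 untreated regions, 55 lactate-only. At a fold of at least 4 in each list, 39 of 102 lactate regions were lactate-only and 5 of 69 untreated regions untreated-only. At a Poisson −log10 p (recomputed) of 7 or more these were 37 of 106 and 6 of 77. With 1 summit in each library, 15 of 46 shared regions reached 2. Shares over all regions under these changed settings are not given here. Whether the counts near these genes differ from the genome under them was not tested. The same scaling gave start regions relative ratios of 1.58 (CCND1), 1.09 and 0.690 (CCND3 inner and outer), 1.12 (CCNE2), 0.823 and 0.979 (CDK2 lower and upper end), 0.723 (CDK4), 0.780 (CDK6), 1.83 (E2F1) and 1.30 (RB1). At the CCNE2 summits nearest to its upper end the ratio was 5.09, from 86 lactate and 20 untreated tags, which compares summits at different positions. Depth limits single regions, since the counting interval of a ratio widens as tags get fewer.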
